A study of Homo sapiens with 16 samples.

Results

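The 10 genes EP300, CREBBP, KAT2A, KAT2B, KAT5, KAT6A, KAT6B, KAT7, KAT8 and HAT1, which encode the main human histone acetyltransferases, were taken by symbol from the 35993 genes of the count table. All 10 passed the filter on low counts, among 21297 genes tested. RNA was sequenced from the human bladder cancer lines TCCSUP, RT112, J82 and 253J (genotype WT), 4 in all, each given either the vehicle DMSO at 0.01% (control) or CM-1758, an inhibitor of histone deacetylases, at the half-maximal inhibitory concentration of that line for 48 h. There were 2 libraries for each line and treatment, described as independent biological replicates, so 16 in all. The concentration of CM-1758 therefore differed between the lines, and TCCSUP was also grown in another medium (EMEM) than the other lines (DMEM), so that line, concentration and, for TCCSUP, medium cannot be told apart when effects are compared between lines.

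Histone acetyltransferases move an acetyl group from acetyl-CoA to lysines of the histone tails, and histone deacetylases, the targets of CM-1758, take it off again. The genes fall into families: the closely related coactivators p300 (EP300) and CBP (CREBBP); GCN5 (KAT2A) and PCAF (KAT2B), which work in the SAGA and ATAC coactivator complexes; the MYST family of KAT5 (TIP60), KAT6A (MOZ), KAT6B (MORF), KAT7 (HBO1) and KAT8 (MOF); and HAT1, which acetylates newly made histone H4 before it is laid down on DNA. Genes that encode p300, CBP and other chromatin regulators are often mutated in bladder cancer.

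The upstream sequences of KAT2A, the gene that fell furthest over the 4 lines, and CREBBP, whose change in 253J went the opposite way to that of its paralog EP300, are shown as the stretches next to the starts of these 2 genes. They are the 130 bases before the start site in RefSeq (GRCh38.p14), read 5′ to 3′ on the strand of the gene, and capitals mark the GC box CCGCCC on either strand. The KAT2A stretch is chr17:42121368-42121497 and the CREBBP stretch chr16:3880714-3880843, both on the minus strand.
KAT2A: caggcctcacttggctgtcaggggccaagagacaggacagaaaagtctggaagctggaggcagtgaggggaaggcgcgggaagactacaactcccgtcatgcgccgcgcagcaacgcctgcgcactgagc
CREBBP: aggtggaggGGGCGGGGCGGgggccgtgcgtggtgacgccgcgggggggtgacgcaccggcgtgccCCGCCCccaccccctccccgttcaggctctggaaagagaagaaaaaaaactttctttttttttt

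The CREBBP stretch held 3 GC boxes, 2 of which shared a base, and the KAT2A stretch held 0. Over the 250 bases before the start, a GC box lay in 3 of the 8 genes with an entry, CREBBP, KAT2B and HAT1, and in 42.6% of the 35116 RefSeq promoters. KAT6A and KAT8 had no entry. For KAT5 and KAT6B the start used lay inside the annotated gene, so their 250 bases fell at least partly within it. The motif CCGGAAG, as bound by ETS factors, was found in KAT5, KAT7 and HAT1, 3 of 8 against 8.52% of all promoters. The CCAAT motif, which was searched on both strands like the others, lay in 1 of 8, HAT1, against 32.0%. The E2F motifs TTTCCCGC, TTTGGCGC and TTTCGCGC were in 0 of 8 and 2.32% of all promoters, and the NRF1 motif GCATGCGC, the cyclic AMP response element TGACGTCA and the TATA box TATAAA were likewise in 0 of 8, against 2.63%, 1.65% and 10.7%. The promoter GC content of the 8 genes ran from 56.4% in KAT7 to 80.8% in KAT2B, beside a median of 58% over all promoters.

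Library totals ran from 22506431 to 32537104 counts, and a library held between 94 and 4351 counts of any 1 of the 10 genes. Between 9.58% and 21.3% of a library's counts fell on 7 small noncoding RNA genes. The highest shares were in the TCCSUP CM-1758 libraries (19.3% and 21.3%, against 12.4% and 12.1% in TCCSUP controls). CPM are counts scaled to an equal library total, with TMM factors throughout except for the epithelial, urothelial, leukocyte and fibroblast markers. Of 5 epithelial markers, the keratin genes KRT8, KRT18 and KRT19 had a mean of 52.9 CPM or more in every group. EPCAM, in contrast, was at 0.436 in 253J and 1.06 in J82 controls, and CDH1 at 3.29 in J82 controls. The summed level of 9 urothelial markers was 1995 to 2308 CPM in RT112 controls, 93.2 to 100 in TCCSUP, 24.3 to 28.4 in J82 and 11.3 to 12.1 in 253J, where 5 of the 9 were at 0. The 5 leukocyte markers summed to at most 19.0 CPM in any library. The 5 fibroblast markers summed to 2114 to 2211 CPM in TCCSUP controls and 380 to 413 after CM-1758, with none at 0. In RT112 they summed to 1372 to 1376 and 940 to 1025, and 2 of 5 were at 0 in controls. Nearly all of the RT112 sum was LUM, with a mean of 1369 CPM in controls and 953 after CM-1758. In J82 the 5 markers summed to 87.1 to 98.0 and 157 to 197, and in 253J to 27.9 to 28.9 and 21.2 to 22.7. The urothelial sum after CM-1758 was 925 to 1015 in RT112, 148 to 164 in TCCSUP, 32.97 to 39.7 in J82 and 19.3 to 24.2 in 253J. The sum of 12 proliferation genes fell in every line: from 2595-3177 to 553-713 CPM in 253J, from 2583-2706 to 936-977 in TCCSUP, from 2396-3008 to 1115-1450 in J82 and from 2897-2946 to 1816-2100 in RT112. Each library came from a cultured cancer line, so these marker sums were read as RNA levels in the line and not as numbers of other cells. Their part in the changes of the acetyltransferase genes was not tested.

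By a chi-square of the counts, the J82 control libraries differed most from each other (73.1 per degree of freedom, against 11.7 to 49.2 in the other groups), while by Pearson's r of log2 CPM across genes the TCCSUP CM-1758 libraries were the least alike (0.983, against 0.986 for the J82 controls). In the J82 controls, replicate 3 stood below replicate 1 by a median of 0.20 on the log2 scale over 1421 long genes (at least 8 kb of merged exons). It stood above replicate 1 by 0.25 over 1784 short genes (under 2 kb). EP300, with 9.59 kb, was lower in replicate 3 by 1.09 on that scale (-1.09) and CREBBP, with 10.8 kb, by 0.70 (-0.70), while HAT1, with 1.63 kb, was higher by 0.63. Between the J82 CM-1758 libraries, the median of replicate 3 minus replicate 1 was -0.18 over the long genes and 0.19 over the short genes. That difference was -0.50 for EP300, -0.58 for CREBBP and 0.15 for HAT1. Between treatments, the long genes had a median log2 difference of 0.26 in RT112 and the short genes one of -0.28, with 0.14 and -0.12 in J82, -0.06 and -0.13 in TCCSUP, and -0.05 and 0.02 in 253J. The part of RNA length in the changes below was not tested. The J82 values below are given with this spread.

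Treatment with CM-1758 lowered most of the acetyltransferase transcripts. KAT2A and KAT8 were lower in all 4 lines, CREBBP, KAT2B, KAT6B and KAT7 in 3, KAT5 in 2 and HAT1 in 0. EP300 and KAT6A, in contrast, were higher in 253J and RT112 and passed the test in neither direction in J82 and TCCSUP. Of the 40 combinations of gene and line, 22 were called lower and 4 higher by edgeR's quasi-likelihood test with an adjusted p under 0.05 (Benjamini-Hochberg over all tested genes).

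In 253J, 5 of the 10 genes were lower and 2 higher, beside 22.4% and 28.8% of all tested genes. In J82, 7 were lower and 0 higher, beside 18.5% and 24%. In RT112, 4 were lower and 2 higher, beside 20.2% and 27.4%, and in TCCSUP 6 were lower and 0 higher, beside 22.1% and 32%. With the filter of the main fit, the shares of lowered genes among the acetyltransferases were above those of all tested genes in each line. That background also holds genes with few counts, whereas each of the 10 had 94 or more in every library. Requiring at least 10 counts in every library left 11984 genes. Of these, 6283 to 7774 were called in a line, against 9044 to 11518 of 21297. Of the calls, 50.1% to 53.2% were then higher, in place of 56.2% to 59.1%. With that requirement the lower calls of KAT5 in RT112 (edgeR, adjusted p = 0.0662), KAT2B in 253J (0.0584) and KAT8 in J82 (0.0806) and TCCSUP (0.0501) ended. The shares of lowered genes were not compared again there, so whether they stayed above in each line is not known. The 10 genes were not compared with genes of similar counts. The same limit holds for the other shares and medians of all tested genes. The 10 genes had a median log2 fold change of -0.74 in J82, -0.53 in TCCSUP, -0.42 in 253J and -0.26 in RT112, where that of all tested genes was 0.05, 0.20, 0.10 and 0.12. Most of these changes were moderate. Under the stricter rule of a log2 fold change past 2 with an adjusted p under 0.01, 1 of the 40 combinations remained, KAT2A in 253J, beside 12.9% of all genes there, 17.5% in TCCSUP, 12.8% in RT112 and 10.1% in J82.

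EP300 and CREBBP, which encode the coactivators that acetylate histone H3 at enhancers and promoters, changed unequally. EP300 stood at 18.6 and 17.9 CPM in 253J controls and at 30.1 and 38.7 after CM-1758. In RT112 it stood at 45.8 and 58.6, then at 90.0 and 109. Treated libraries were above both controls in these lines, by 1.89-fold in 253J (adjusted p = 0.0117) and 1.91-fold in RT112 (adjusted p = 0.00975, edgeR). In TCCSUP the values were 34.1 and 37.2 in controls and 36.9 and 45.2 after treatment, and in J82 they were 32.0 and 15.0, then 18.8 and 13.3. The groups overlapped in both of these lines, and the log2 fold changes were 0.20 (95% interval -0.37 to 0.78) and -0.55 (-1.15 to 0.04). The J82 value depended on the control library: it was -0.9995 without replicate 3, which passed (adjusted p = 0.00301), and 0.09 without replicate 1. The EP300 call in 253J ended without any of 3 of its 4 libraries (adjusted p 0.0523 without control replicate 2, 0.0649 without control replicate 3 and 0.102 without CM-1758 replicate 3), and that in RT112 without control replicate 1 (0.0968) or CM-1758 replicate 2 (0.0733).

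CREBBP stood at 19.3 and 17.3 CPM in 253J controls and at 9.51 and 9.31 after CM-1758. In J82 it went from 45.1 and 27.7 to 17.9 and 11.98, and in TCCSUP from 34.9 and 40.4 to 16.5 and 23.5. These 3 lines showed no overlap and log2 fold changes of -0.96 (SE 0.25, adjusted p = 0.00503), -1.28 (SE 0.24, adjusted p = 0.000659) and -0.91 (SE 0.24, adjusted p = 0.00531). In RT112 the values were 23.8 and 31.0 in controls and 32.1 and 36.7 after treatment, with a log2 fold change of 0.33 (95% interval -0.18 to 0.84) that did not pass. The TCCSUP call ended without its CM-1758 replicate 1 (adjusted p = 0.0745) and with libraries scaled by their size alone (adjusted p = 0.0598).

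The ratio of EP300 to CREBBP counts within a library, which no scaling can alter, was higher after CM-1758 in all 4 lines. It went from 0.966 and 1.04 to 3.17 and 4.16 in 253J and from 0.711 and 0.542 to 1.05 and 1.11 in J82. In RT112 it went from 1.92 and 1.89 to 2.80 and 2.99, and in TCCSUP from 0.978 and 0.922 to 2.24 and 1.92. The groups did not overlap in any line, and the geometric mean ratio was 3.63-fold higher in 253J, 2.18-fold in TCCSUP, 1.74-fold in J82 and 1.52-fold in RT112. The ratio was not tested, and both genes are of similar length. EP300-AS1, an antisense gene counted apart from EP300, had 17 to 184 counts against 392 to 2871 for EP300, or 1.62% to 29.1% of them. The library kit keeps strand, but whether the counting used it is not given in the sources used here.

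**Figure D1:**
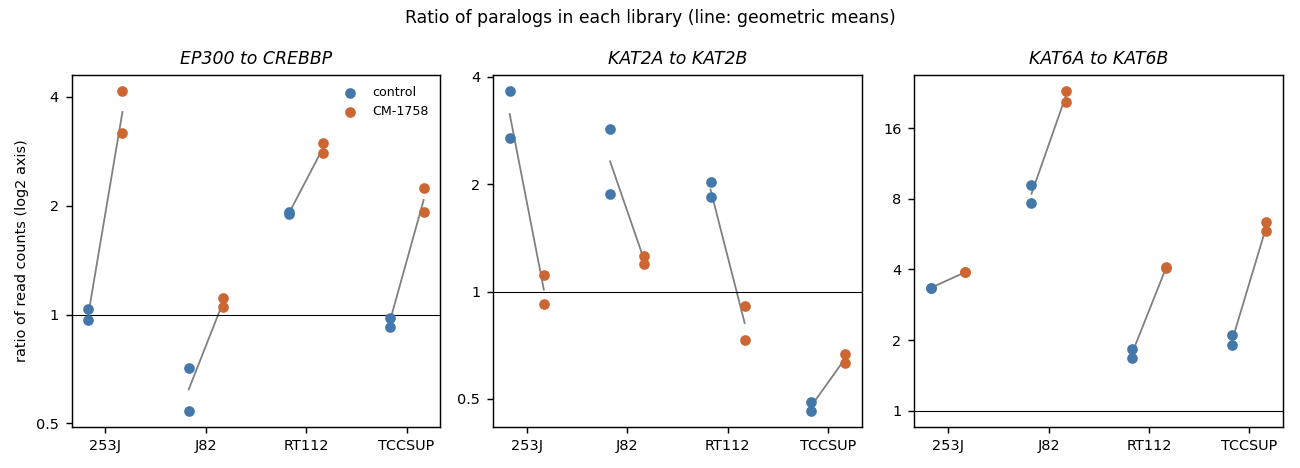
Ratio of read counts between paralogs in each library on a log2 axis, for EP300 to CREBBP, KAT2A to KAT2B and KAT6A to KAT6B, by cell line, with control in blue, CM-1758 in orange and a line joining the geometric means. EP300 to CREBBP and KAT6A to KAT6B are higher after CM-1758 in all 4 lines, and KAT2A to KAT2B is lower in 253J, J82 and RT112 but higher in TCCSUP.

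KAT2A, which encodes GCN5, the acetyltransferase of histone H3 in SAGA and ATAC, had the lowest mean log2 fold change of the 10 genes. Its level fell from 70.5 and 58.6 CPM to 16.5 and 14.7 in 253J and from 63.6 and 50.1 to 21.6 and 20.6 in J82. In RT112 it fell from 39.6 and 42.1 to 13.9 and 20.7, and in TCCSUP from 20.3 and 23.5 to 11.5 and 10.6. No treated library reached a control library of its line. In 253J the fall was 4.14-fold (adjusted p = 5.14e-07), in J82 2.70-fold (adjusted p = 2.05e-05), in RT112 2.36-fold (adjusted p = 6.88e-05) and in TCCSUP 1.98-fold (adjusted p = 0.00045, edgeR). These calls held under each of the 24 alternative settings and left-out libraries. Control means ran from 64.5 ± 8.44 CPM (SD, n = 2) in 253J to 21.9 ± 2.21 in TCCSUP, and after CM-1758 the group means lay between 11.04 and 21.1.

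KAT2B, the paralog that encodes PCAF, was lowered most in TCCSUP, from 43.9 and 48.0 CPM to 18.2 and 15.9, a fall of 1.43 on the log2 scale (SE 0.15, adjusted p = 1.64e-06). The changes in 253J and J82 were smaller, from 19.3 and 21.7 to 14.9 and 15.96 and from 22.3 and 26.6 to 17.2 and 17.3. In RT112 the values were 21.5 and 20.7 in controls and 19.1 and 22.7 after treatment, which overlapped, with a log2 fold change of -0.02 (95% interval -0.33 to 0.29). The calls in 253J (-0.41, adjusted p = 0.0297) and J82 (-0.51, adjusted p = 0.0111) were lost under several settings, among them library size alone (adjusted p 0.453 and 0.0579), and without control replicate 3, CM-1758 replicate 1 or CM-1758 replicate 3 of the line (0.0658 to 0.176 in 253J and 0.0515 to 0.103 in J82). The ratio of KAT2A to KAT2B counts went from 3.66 and 2.70 to 1.11 and 0.924 in 253J, from 2.85 and 1.88 to 1.26 and 1.19 in J82, and from 1.84 and 2.03 to 0.731 and 0.911 in RT112. In TCCSUP, where KAT2B was the more abundant by count, it went the opposite way, from 0.463 and 0.489 to 0.628 and 0.668.

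In the MYST family, KAT5 encodes TIP60, the acetyltransferase of a complex that acts in transcription and the repair of DNA breaks. It was lower in J82, from 31.4 and 39.99 CPM to 18.3 and 17.8 (1.98-fold, adjusted p = 0.00194), and in RT112, from 34.2 and 33.6 to 24.1 and 20.6 (1.51-fold, adjusted p = 0.032). It stood at 23.4 and 17.2, then 14.4 and 15.96 in 253J, and at 16.98 and 24.7, then 12.7 and 18.8 in TCCSUP. Both of these lines gave negative log2 fold changes, -0.42 and -0.40, that did not pass (adjusted p 0.123 and 0.135), although TCCSUP did without control replicate 1 (0.0446) or CM-1758 replicate 2 (0.0387). The RT112 call ended without any 1 of its 4 libraries (adjusted p 0.0541 to 0.178) and with other scalings. The exons of KAT5 overlap those of RNASEH2C on the other strand, which had more counts (756 to 1995) than KAT5 (340 to 1100).

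KAT6A and KAT6B, which encode paired acetyltransferases of histone H3 in complexes with BRPF proteins, had different calls in each line, and the difference between the 2 genes was not tested. KAT6B went from 12.3 and 7.82 CPM to 3.69 and 3.18 in J82, from 22.1 and 21.7 to 12.7 and 13.9 in RT112 and from 26.1 and 26.2 to 9.70 and 10.3 in TCCSUP. These falls were 2.93-fold (adjusted p = 3.12e-05), 1.64-fold (adjusted p = 0.00578) and 2.61-fold (adjusted p = 2.88e-05), and they held under all 24 alternatives. In 253J KAT6B stood at 9.85 and 9.35 in controls and at 11.01 and 12.8 after treatment, without overlap and with a log2 fold change of 0.31 (95% interval -0.10 to 0.72). Libraries scaled by size alone gave a call there, at 0.59 (adjusted p = 0.0242).

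KAT6A rose in 253J, from 32.9 and 31.3 CPM to 42.9 and 50.0 (1.45-fold, adjusted p = 0.00603), and in RT112, from 37.0 and 39.6 to 51.5 and 56.7 (1.41-fold, adjusted p = 0.01). It stood at 94.5 and 71.9 in J82 controls and at 76.0 and 73.7 after CM-1758, and at 49.7 and 55.3, then 62.0 and 60.4 in TCCSUP. The J82 groups overlapped, and the TCCSUP groups did not. The TCCSUP log2 fold change was 0.22 (95% interval -0.08 to 0.53) and passed with library size alone (0.53, adjusted p = 0.00744) and with at least 10 counts required in every library (0.37, adjusted p = 0.0332). The 253J call ended without CM-1758 replicate 3 (adjusted p = 0.0707), and the RT112 call without control replicate 1 (0.0859) or CM-1758 replicate 2 (0.0805). The ratio of KAT6A to KAT6B counts went from 7.68 and 9.20 to 20.6 and 23.1 in J82, from 1.67 and 1.83 to 4.05 and 4.08 in RT112, from 1.91 and 2.11 to 6.40 and 5.84 in TCCSUP and from 3.34 and 3.35 to 3.89 and 3.90 in 253J.

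KAT7 encodes HBO1, which acetylates histones H3 and H4 and is linked to the licensing of replication origins. It fell from 55.1 and 64.9 CPM to 33.9 and 29.3 in J82 (1.90-fold, adjusted p = 6.63e-05), from 52.4 and 57.3 to 37.7 and 43.0 in 253J (1.36-fold, adjusted p = 0.0116) and from 45.0 and 44.8 to 30.7 and 29.2 in TCCSUP (1.498-fold, adjusted p = 0.00204). In RT112 it stood at 59.9 and 61.4, then at 57.3 and 50.8, with a log2 fold change of -0.17 (95% interval -0.45 to 0.12). With library size alone the 253J and TCCSUP calls ended (adjusted p 0.301 and 0.101), and the 253J call also ended without control replicate 3 (0.0838) or CM-1758 replicate 1 (0.102). Its exons overlap FAM117A on the other strand, which had 8 to 192 counts.

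KAT8 encodes MOF, which acetylates histone H4 at lysine 16 within the MSL and NSL complexes. It had the most even control level of the 10 genes: 18.8 and 21.1 CPM in 253J, 21.0 and 24.0 in J82, 22.5 and 22.7 in RT112 and 20.7 and 22.1 in TCCSUP. After CM-1758 it stood at 11.6 and 10.9, 17.4 and 16.5, 13.2 and 13.4, and 16.4 and 14.3, below the controls of the same line in each case. By line the fall was 1.78-fold for 253J (adjusted p = 0.00016), 1.70-fold for RT112 (adjusted p = 0.000408), 1.40-fold for TCCSUP (adjusted p = 0.00875) and 1.33-fold for J82 (adjusted p = 0.0258). The calls in 253J and RT112 held under all 24 alternatives. Among other settings, that in J82 ended under RLE scaling (adjusted p = 0.0753), library size alone (0.143) and without control replicate 3 (0.164), CM-1758 replicate 1 (0.115) or CM-1758 replicate 3 (0.127), and that in TCCSUP ended with library size alone (0.307) and without control replicate 2 (0.0638) or CM-1758 replicate 2 (0.0902).

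HAT1 had the smallest mean change of the 6 genes whose log2 fold change was negative in all 4 lines. It stood at 73.0 and 54.5 CPM in 253J controls and at 54.0 and 52.7 after CM-1758, and at 102 and 158, then 114 and 127 in J82. In RT112 it went from 92.6 and 89.6 to 74.6 and 68.7, and in TCCSUP from 83.3 and 88.0 to 65.0 and 64.2. No line passed in the fit of 8 groups, with adjusted p-values of 0.256, 0.668, 0.128 and 0.0694. With each line fitted alone, RT112 (-0.34, adjusted p = 0.0194) and TCCSUP (-0.42, adjusted p = 0.00297) passed, as they did without either J82 control library (0.0448 and 0.0449 in RT112, 0.0189 and 0.0191 in TCCSUP).

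**Figure D2:**
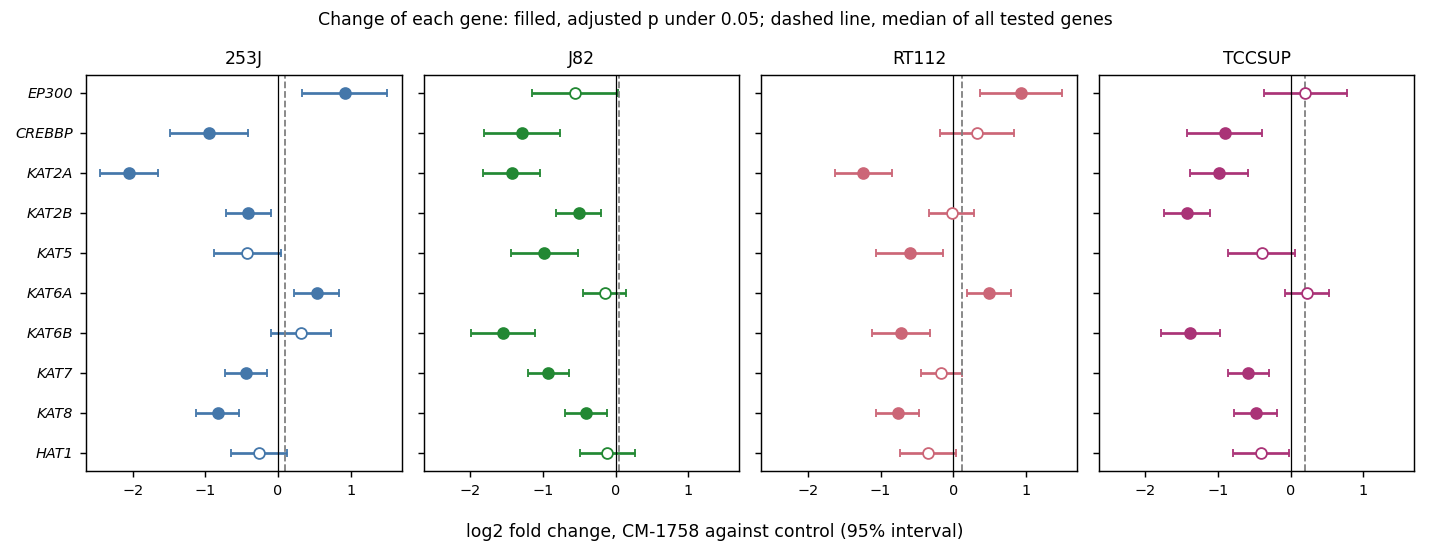
Log2 fold change of each gene, CM-1758 against control, with its 95% interval in each cell line, with filled points for an adjusted p under 0.05 and a dashed line at the median of all tested genes. KAT2A and KAT8 are filled and negative in every panel, and EP300 and KAT6A are filled and positive in 253J and RT112.

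Genes called lower in all 4 lines made up 6.01% of those tested and genes called higher in all 4 lines 6.69%. Of the 10 acetyltransferases 2 were in the first class, KAT2A and KAT8, and 0 in the second. Averaged over the lines, 8 of the 10 were lower and 2 higher at an adjusted p under 0.05, beside 25% and 36.9% of all genes. The mean log2 fold change was -1.43 for KAT2A (SE 0.09, adjusted p = 4.04e-09), -0.83 for KAT6B, -0.71 for CREBBP, -0.62 for KAT8, -0.60 for KAT5, -0.59 for KAT2B, -0.53 for KAT7 and -0.28 for HAT1 (adjusted p = 0.0131). For HAT1 the mean did not pass with library size alone (-0.06, adjusted p = 0.608) or with at least 10 counts in every library (-0.16, adjusted p = 0.0968). The means of EP300 (0.37, adjusted p = 0.0257) and KAT6A (0.27, adjusted p = 0.00335) were positive but lay close to the median of all tested genes, 0.28. That median also includes genes with few counts, and a median over genes of similar counts was not taken. The mean of EP300 did not pass without any 1 of 7 libraries (adjusted p 0.0517 to 0.0727), namely control replicate 3 and CM-1758 replicate 3 of 253J, CM-1758 replicate 1 of J82, control replicate 1 and CM-1758 replicate 2 of RT112, and control replicate 1 and CM-1758 replicate 2 of TCCSUP.

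The effect of CM-1758 differed between the lines for 7 of the 10 genes by the interaction test (edgeR, adjusted p under 0.05), where 51.9% of all genes passed. The adjusted p was 0.000208 for KAT6B, 0.000316 for KAT2B, 0.0049 for CREBBP, 0.0124 for EP300, 0.016 for KAT2A, 0.0205 for KAT7 and 0.0299 for KAT6A. KAT5 (0.321), KAT8 (0.188) and HAT1 (0.756) did not pass. Of 60 differences between 2 lines over the 10 genes, 17 passed. The share of all tested genes that passed these tests of 2 lines was not taken. Whether 17 is many or few beside other genes is therefore not known. KAT6B in 253J differed from each of the other lines, from J82 by 1.86 on the log2 scale (SE 0.28, adjusted p = 0.000163 for a difference of -1.86). KAT2B in TCCSUP differed from each of the others, by -1.02 from 253J, -0.92 from J82 and -1.41 from RT112. CREBBP in RT112 likewise differed from 253J, J82 and TCCSUP. EP300 and KAT6A in J82 differed from 253J and RT112, and KAT2A in 253J from RT112 and TCCSUP.

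In control cells the level differed between the lines for 9 of the 10 genes, all but KAT8 (adjusted p = 0.578), where 78.8% of all genes differed. EP300 was lowest in 253J (18.3 ± 0.512 CPM), followed by J82 (23.5 ± 12.03), TCCSUP (35.7 ± 2.20) and RT112 (52.2 ± 9.07; SD, n = 2 throughout). No neighbours in that order differed, whereas 253J differed from TCCSUP (adjusted p = 0.00812) and RT112, and J82 from RT112. KAT2A ran in the order TCCSUP, RT112, J82 and 253J, where only J82 and 253J did not differ (adjusted p = 0.415). KAT2B stood apart in TCCSUP at 46.0 ± 2.87, 1.88-fold or more above the other lines, which did not differ from each other. KAT6A was highest in J82 (83.2 ± 15.96), above TCCSUP by 1.58-fold (adjusted p = 0.00125), and KAT6B was lower in 253J and J82 than in RT112 and TCCSUP. CREBBP was lower in 253J than in J82 and TCCSUP, KAT5 was higher in J82 and RT112 than in 253J and TCCSUP, KAT7 was lower in TCCSUP than in J82 and RT112, and HAT1 was highest in J82, where its controls ranged from 102 to 158 CPM.

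Between genes, levels were compared per kilobase of merged exons (GENCODE annotation). HAT1 ranked highest and KAT6B lowest in all 8 groups, with 33.5 to 97.3 and 0.505 to 1.69 CPM per kb in control libraries. CREBBP ranked 2 or 3 from the lowest in every group. KAT2A, with a control median of 14.8 CPM per kb, ranked 2 from the top in 253J and J82 controls. After CM-1758 its median was 5.02, and its rank from the top fell from 2 to 4 in these 2 lines.

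**Figure D3:**
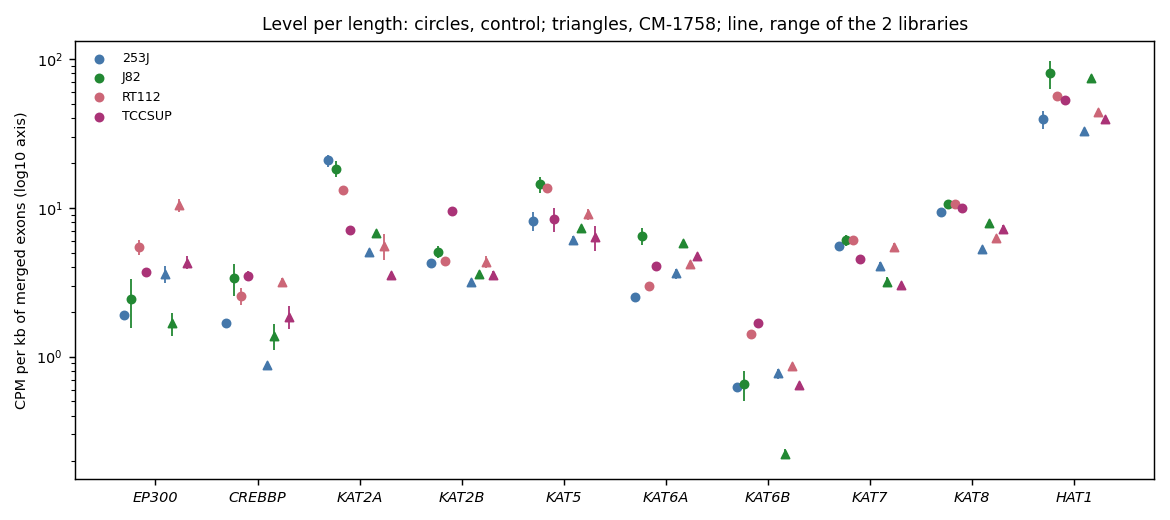
CPM per kilobase of merged exons on a log10 axis for each gene, by cell line (colour), with circles for control, triangles for CM-1758 and lines for the range of the 2 libraries. HAT1 is highest and KAT6B lowest in every group, and each KAT2A triangle lies below the circle of the same line.

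The partners of these enzymes were taken from lists of complex subunits. Of 23 SAGA and ATAC subunits, which hold GCN5 or PCAF, 15 were lower and 1 higher in J82, 11 and 1 in TCCSUP, 11 and 0 in RT112, and 8 and 5 in 253J. For this and the other lists, the shares of all tested genes in a line were 18.5% to 22.4% lower and 24% to 32% higher. The list held 4 genes lower in all 4 lines, the structural subunits TAF6L (mean log2 fold change -1.29) and TAF9B (-1.14), the reader of methylated histone H3 SGF29 (-1.12) and the adaptor TADA2A (-0.75). Of 15 TIP60 complex subunits, 4 to 8 were lower and 0 or 1 higher in a line. The 4 lower in 253J were near the share of all genes, and the list median there was 0.09 beside 0.10 for all genes. The scaffold EPC1 (-1.05), the bromodomain protein BRD8 (-0.90) and MRGBP (-0.81) were lower in all 4.

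Of 9 subunits of the MOZ, MORF or HBO1 complexes, 5 were lower in each line and 0 to 2 higher. JADE2, a scaffold of HBO1, had the lowest mean of the genes named, -2.30, with log2 fold changes of -2.65 in TCCSUP, -2.53 in J82, -2.04 in 253J and -1.98 in RT112. BRD1 (-1.03), the scaffold that can also bind HBO1, was lower in all 4 lines. Of 11 MSL and NSL subunits, the partners of MOF, 10 were lower in J82, 8 in 253J and 7 each in RT112 and TCCSUP, and 1 was higher, in 253J. Of these, 5 were lower in all 4 lines, among them the MSL scaffold MSL1 (-1.33), MCRS1 (-1.01), the sugar transferase OGT (-0.77) and KANSL2 (-0.62). The list median ran from -0.62 in J82 to -0.47 in TCCSUP.

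The 13 partners of p300 and CBP did not share this direction: 6 rose and 2 fell in J82, 6 and 1 in RT112, 3 and 4 in TCCSUP, and 3 and 3 in 253J. CITED2, which binds the same domain of p300 and CBP as HIF-1α, rose in all 4 lines, by a log2 fold change of 3.43 in RT112, 2.38 in 253J, 1.22 in TCCSUP and 1.11 in J82, and NCOA2, a coactivator of nuclear receptors that recruits them, fell in all 4 with a mean of -1.27. Of 11 genes that handle new histones H3 and H4, the setting in which HAT1 works, 11 were lower in 253J, 8 each in RT112 and J82 and 5 in TCCSUP, while 1 each was higher in J82 and TCCSUP. The histone chaperone NASP (-1.27) and the histone-binding protein RBBP4 (-0.72) were lower in all 4 lines. The sum of proliferation genes given above also fell in every line. The new-histone list had a median log2 fold change of -0.80 in RT112 and -0.38 in TCCSUP, the proliferation genes -0.61 and -1.98. The proliferation genes were mixed. MCM3 (-1.99 and 0.13) and MCM5 (-2.07 and -0.05) fell more in RT112, like MCM2 (-1.72 and 0.54) of the new-histone list. TOP2A (-0.37 and -2.50) and CCNB1 (-0.51 and -2.66) fell more in TCCSUP. In 253J the medians were -1.43 and -2.24, and in J82 -0.60 and -1.25. The part of proliferation was not tested.

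Of 10 genes that supply acetyl-CoA, 3 or 4 were lower and 1 to 3 higher in a line, which is near the shares of all genes in 253J, and the list median ran from -0.39 in J82 to -0.08 in 253J. ATP citrate lyase ACLY, which makes acetyl-CoA outside mitochondria, fell in all 4 lines with a mean log2 fold change of -0.70 and from a mean of 333 to 200 CPM. SLC25A1, the mitochondrial citrate carrier, also fell in all 4 (-0.63). Of 11 other acetyltransferases described on histones, 0 passed in 1 direction in all 4 lines, and the extremes of the mean were CDYL (0.49) and ESCO2 (-1.11). All 12 proliferation genes were lower in 253J and J82, 5 in RT112 and 9 in TCCSUP, with CCNA2 (-1.95) and TYMS (-1.54) lower in all 4.

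**Figure D4:**
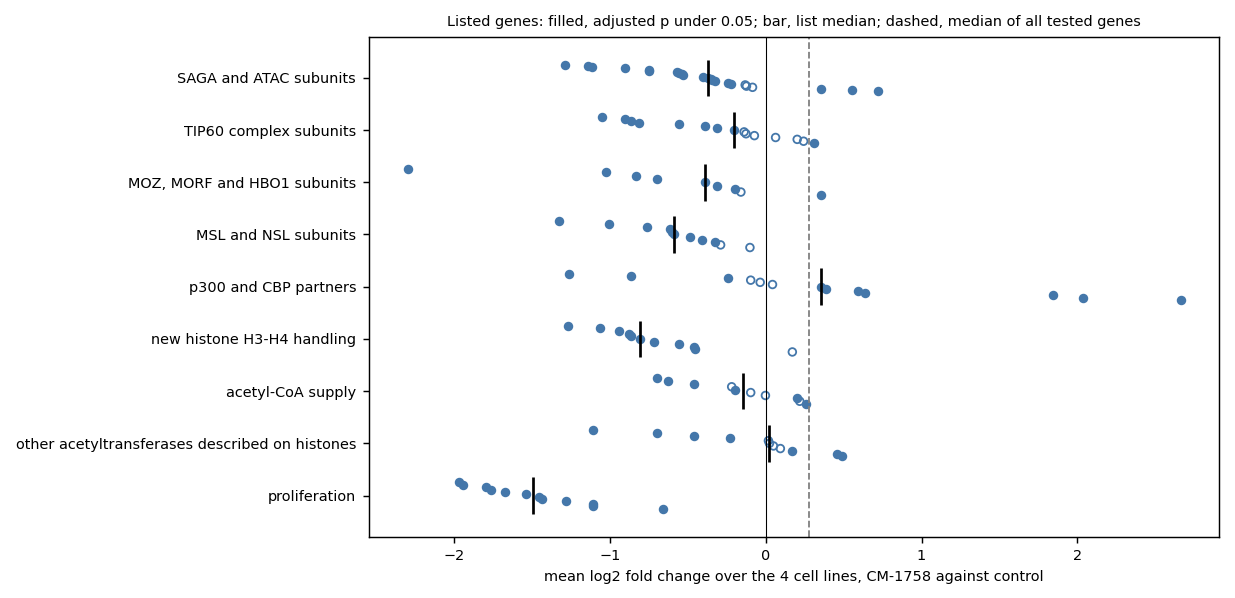
Mean log2 fold change over the 4 lines for each gene of the 9 lists, CM-1758 against control, with filled points for an adjusted p under 0.05, a black bar at the list median and a dashed line at the median of all tested genes (0.28). The MSL and NSL points all lie below 0, and the p300 and CBP partners spread to both sides.

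The genes whose pattern was most like that of each acetyltransferase were found by Pearson's r of log2 CPM over the 16 libraries after the mean of each line was taken off. The points share the same treatment in 8 libraries, so r mostly reflects the difference between treated and control libraries and carries no test. The first 2 were AFF4 (r = 0.96) and TPP1 for EP300, MAP4 (0.98) and NCOA6 for CREBBP, DDX42 (0.98) and TMEM39B for KAT2A, NR1D2 (0.97) and MTMR2 for KAT2B, and EEF1B2P6 (0.95) and DCPS for KAT5. They were VCPIP1 (0.97) and SAP130 for KAT6A, PARP4 (0.98) and STS for KAT6B, MTMR4 (0.96) and QRICH1 for KAT7, TSTD3 (0.98) and NASP for KAT8, and EIF3E (0.96) and PSMA3 for HAT1. Among the acetyltransferases themselves, EP300 and KAT6A (r = 0.94) and KAT2A and KAT8 (0.93) were the most alike pairs.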

How the data were processed

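Stranded total RNA libraries, depleted of ribosomal RNA, were sequenced by a service provider. The submitters' processing notes name HISAT2, StringTie and GRCh37, and the authors deposited 1 table of raw counts, whole numbers of reads per gene symbol for 16 libraries, with no normalization. All columns were matched to samples by their titles. Counts were filtered with filterByExpr, scaled by TMM and fitted with edgeR 4.0.16 (quasi-likelihood, R 4.3.3) in 1 model of 8 groups, with Benjamini-Hochberg adjustment within each contrast. The interaction was a test of 3 contrasts, and 95% intervals follow from the fit. The common biological coefficient of variation was 0.153. CPM use TMM-scaled library sizes, except for the cell type markers, which use library totals alone, and log2 CPM a prior count of 2. Exon lengths came from GENCODE and promoters from RefSeq on GRCh38.p14, another build than that of the counts, so the only coordinates given are those of the 2 promoter stretches, on the RefSeq build.

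The 10 genes and the lists were chosen with earlier results of these data known. All 10 genes are named. From each list, up to 4 genes called the same way in all 4 lines are named, by the size of their mean change, or else the extremes, together with the 2 genes most correlated with each of the 10. Replicate numbers were not used to pair the samples in the main fit. Libraries of the same number and line deviated together with correlations of 0.218 in J82, 0.053 in 253J, 0.043 in RT112 and 0.017 in TCCSUP. DESeq2 1.42.0, RLE, library size alone, other filters, a replicate block, each line alone and each library left out were tried. Since a group holds 2 libraries, the test takes part of its estimate of spread from other genes and groups.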

Additional observations from a re-analysis of the deposited data

Results flagged for a closer look

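The effect of CM-1758 differed between the 4 cell lines for 7 of the 10 genes by edgeR's test of the interaction, and 51.9% of all tested genes passed that test. The adjusted p was 0.0124 for EP300 (log2 fold changes from -0.55 in J82 to 0.93 in RT112), 0.0049 for CREBBP (-1.28 in J82 to 0.33 in RT112), 0.016 for KAT2A (-2.05 in 253J to -0.99 in TCCSUP), 0.000316 for KAT2B (-1.43 in TCCSUP to -0.02 in RT112), 0.0299 for KAT6A (-0.15 in J82 to 0.53 in 253J), 0.000208 for KAT6B (-1.55 in J82 to 0.31 in 253J) and 0.0205 for KAT7 (-0.93 in J82 to -0.17 in RT112). Leaving out 1 library at a time ended the call of KAT6A for 10 of 16 libraries (adjusted p up to 0.114), that of KAT7 for 5 (J82 control and CM-1758 replicate 3, both RT112 controls and RT112 CM-1758 replicate 1, up to 0.0729) and that of KAT2A for 2 (253J control replicate 2 and CM-1758 replicate 3, up to 0.0813), and those of EP300, CREBBP, KAT2B and KAT6B stayed at or below 0.0486. Concentration differed with the line, and its part was not tested.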

How the results depend on the processing

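Of the 26 calls in a cell line, 14 held under each of 24 alternatives: KAT2A in all 4 lines, KAT6B in J82, RT112 and TCCSUP, CREBBP in 253J and J82, KAT8 in 253J and RT112, KAT2B in TCCSUP, and KAT5 and KAT7 in J82. The other 12 ended under 1 or more. Library size alone raised the median log2 fold change of all genes by 0.15 to 0.31 and the share of higher genes among those called from 56.2% to 68.5% in 253J and from 59.1% to 73.9% in TCCSUP. It left 3 of the 10 genes lower in 253J, and 3 lower and 1 higher in TCCSUP, in place of 5, 6 and 0. With at least 10 counts in every library, 1 was higher in TCCSUP. The replicate block left 3 lower in 253J, where 1 number is shared, added lower calls for EP300 in J82 (-0.49, adjusted p = 0.0233), KAT5 in TCCSUP (-0.40, 0.0344) and HAT1 in RT112 (-0.35, 0.0417) and TCCSUP (-0.41, 0.0197), and took the interaction of KAT2A to an adjusted p of 0.0504 and that of KAT5 to 0.0463. An adjusted p under 0.01 left 1 higher and 3 lower in 253J, 1 higher in RT112, 1 higher in the mean and 3 with an interaction. A log2 fold change past 2 left 1 lower in 253J and 0 for every other count, the mean included. Leaving out 1 library gave 0 to 2 higher and 3 to 5 lower genes in 253J, 0 to 2 higher and 3 to 5 lower in RT112, 5 to 7 lower in J82 and in TCCSUP, 1 to 2 higher in the mean and 5 to 7 with an interaction. Signs turned for uncalled values. KAT2B in RT112 became 0.062 with RLE, 0.132 with library size, 0.0433 with DESeq2 and 0.113 with 10 counts, and ran from -0.1531 to 0.102 over left-out libraries. HAT1 became 0.0172 in 253J and 0.038 in J82 with library size and 0.003 in J82 with 10 counts, and ran from -0.3955 to 0.239 in J82 over left-out libraries. In J82, EP300 ran from -0.9995 to 0.0912 and KAT6A from -0.3356 to 0.0563. The causes were not tested.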
